A study of Mus musculus with 12 samples.

Results

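The comparison concerns mouse haematopoietic stem cells after 2 weeks of blockade of the chemokine receptor CXCR4. It takes the 3 arrays of mice infused with POL5551 and the 3 arrays of sham-operated mice, 6 of the 12 arrays of the study. The arrays were chosen by their treatment labels. All mice were male, and each gave 1 array. POL5551, a peptide-like antagonist of CXCR4, was given by continuous infusion at 100 mg/kg per day, and cells were taken on day 14 from the start. The controls had a sham operation. The labels name no strain, age or vehicle. Marrow was enriched for Kit-bearing cells, and the lineage-negative, Sca-1 and Kit positive fraction gated on SLAM family receptors was sorted from it. The other 6 arrays are of mice injected with granulocyte colony-stimulating factor (G-CSF) for 2 or 5 days. In the model they served only to estimate the spread between mice. They also counted in choosing which probes were tested and which probe stood for a gene.

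CXCR4 is a G protein-coupled receptor on stem cells. Its ligand CXCL12 is made in the marrow chiefly by reticular cells around the sinusoids, and binding of the ligand keeps stem cells in the marrow and favours their quiescence. Antagonists of the receptor release stem cells into the blood. G protein-coupled receptor kinases and arrestins switch the receptor off, and integrins such as VLA-4 cooperate with it in adhesion.

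Levels are log2 fluorescence relative to the array's own 75th percentile, so a level of 0 lies at that percentile and a difference of 1 is a doubling of signal. They compare 1 probe between arrays and do not rank different genes. A gene was called where the adjusted p of limma's moderated test, by Benjamini and Hochberg's method over 33174 genes, was under 0.05. Between 75.3% and 80.3% of the probes were well above background on the 6 arrays, and no spot was saturated.

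Sham 1 stood apart from the other arrays. Its levels had a rank correlation of 0.784 and 0.787 with those of the other shams, against 0.936 between sham 2 and sham 3. Olfactory, vomeronasal, taste and keratin-associated genes, which blood cells are not known to use, are called off-tissue genes here. The median level over their 1539 probes was -1.60, -3.30 and -3.45 in shams 1, 2 and 3, and -5.17, -4.50 and -4.10 in POL5551 mice 1, 2 and 3. The groups did not overlap in this measure. The measure therefore differs in the same comparison as every result below. When it entered the limma model as a covariate, 0 genes were called and 1805 had an unadjusted p under 0.05, against 11629 without it. Values without sham 1 are given where they change a call.

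**Figure D1:**
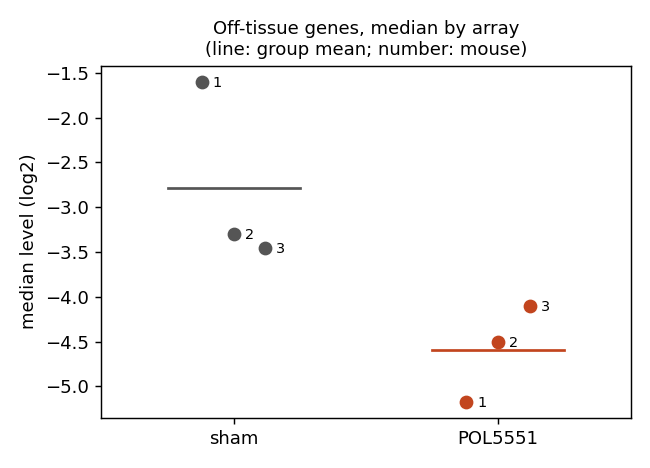
Median level of the off-tissue probes (vertical axis, log2 signal relative to the 75th percentile) on each of the 6 arrays, with the group mean as a line and the mouse number beside each point. Sham 1 is highest at -1.60, and the 3 POL5551 arrays lie between -5.17 and -4.10, below all 3 shams.

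Signal of the sorting markers was found in both groups, though Slamf1 was not above background on sham 1. Kit, the stem cell factor receptor used for enrichment, had levels of 2.88, 3.22 and 3.02 in the shams and 2.82, 3.16 and 3.04 after POL5551. Ly6a, which encodes Sca-1, had -1.84, 0.91 and 0.77 in the shams and 1.44, 0.63 and 0.94 after POL5551. Slamf1, which encodes the SLAM receptor CD150, had -4.12, -0.96 and -1.41 in the shams and -0.30, -1.27 and -0.34 after POL5551. It was above background on 2 shams and all 3 POL5551 arrays. The lowest signal well above background on sham 1 was -3.9. For both Ly6a and Slamf1 sham 1 was the lowest of the 6, and the groups overlapped for all 3 genes. Cd48, whose protein is absent from stem cells by the SLAM definition, was above background on all 6 arrays at -1.70 to -0.49.

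After POL5551, 58 genes were higher (0.175% of those tested) and 688 were lower (2.07%). Of the 58 higher genes 47 have a plain gene symbol, while of the 688 lower genes 195 do, 432 are gene models, clones or intergenic transcripts, and 61 are off-tissue genes. The groups did not overlap for 3499 genes that were higher after POL5551 (10.5%) and 8585 that were lower (25.9%). The median difference over all genes was -0.52. It was -0.26 without sham 1, -0.20 in the authors' table and -0.12 with median scaling. It was 0.03 for the 17476 genes with a plain symbol, -0.82 for the 14538 without one and -1.42 for the 1160 off-tissue genes, and the last 2 were -0.49 and -0.85 without sham 1. At an unadjusted p under 0.05, 2765 genes were higher (8.33%) and 8864 lower (26.7%), and these shares are the background for the unadjusted counts of each list below. The called shares, 0.175% higher and 2.07% lower, are the background for the called counts of each list. Off-tissue genes were called lower at 5.26%, compared with 1.12% of genes with a plain symbol. Differences above 0 were found for 11911 of all 33174 genes and for 8864 of the 17476 with a plain symbol. List counts above 0 are to be read against these.

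The split between directions depended on how arrays were scaled. Higher genes made up 7.77% of calls with the 75th percentile, 23.4% with the median, 4.98% with the percentile over probes above background on all 12 arrays, 20.0% with quantile normalization, 21.4% with normexp and quantile normalization, 25.8% in the authors' values, and 26.6% when arrays were centred on the median of the tested genes. Without sham 1 the counts were 14 higher and 57 lower, and 10 and 56 of the genes first called were among them.

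Few calls held without each array in turn. Over all 746 called genes, 35 were called in every 1 of the 12 fits that left out 1 array. Of the 39 called genes that the naming rule gave, 27 lost the call without POL5551 mouse 1, 25 without POL5551 mouse 2, 8 without POL5551 mouse 3, 22 without sham 1 and 2 without sham 2. Leaving out a G-CSF array, which changes only the estimate of the spread, ended 7 to 16 calls. Cd53, Borcs5, Ddx11, Cnn3, Dydc1, Tmem139, Ccdc148, Kcna2, Krt78, Pramel37 and Noxred1 were called in all 12 fits that left out 1 array. The remaining 28 each lost the call in at least 1 of them, which is repeated below only for sham 1. No sign changed among the 39 genes in these fits.

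The authors' own table, normalized so that every array has the same median, gave 16 higher genes (0.0488% of 32768) and 46 lower (0.14%) under the same model. All 62 were also called, with the same sign, in the scanner values. Of the 746 genes called in the scanner values 727 could be compared in the authors' table, and 726 had the same sign there. The exception is an unnamed transcript on chromosome 2 for which 1 POL5551 spot was an outlier and was left out of the scanner values.

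**Figure D2:**
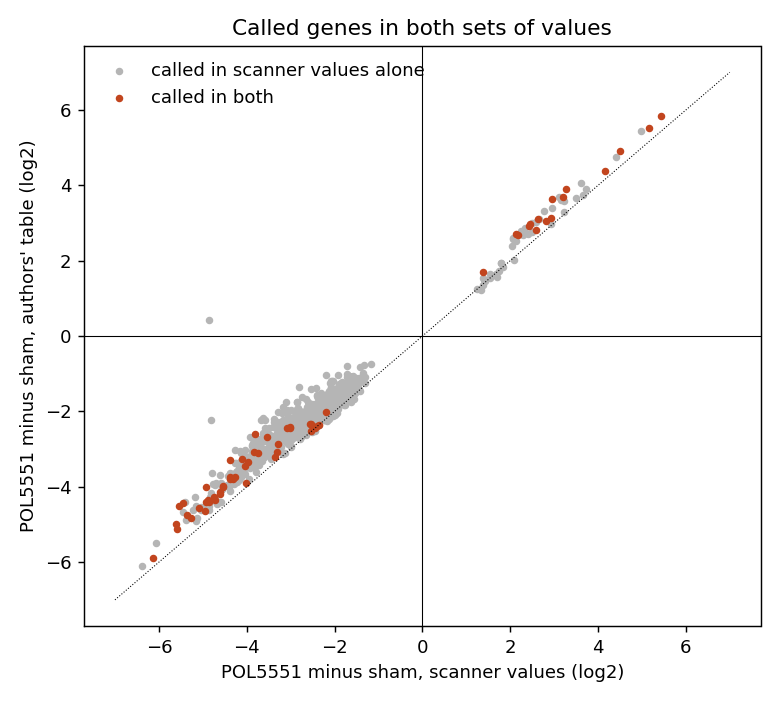
Log2 difference of POL5551 minus sham in the scanner values (horizontal axis) and in the authors' table (vertical axis) for the called genes present in both, 1 point per gene, with the 62 genes called in both in red and the line of equality dotted. Points for lower genes lie mostly above the line, since the authors' values give smaller decreases, and 1 point has opposite signs.

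Of the genes higher in both sets of values Cd53 had the smallest p. Cd53, a tetraspanin of leukocyte membranes, had levels of -6.01, -5.56 and -4.61 in the shams and 0.33, -0.39 and -0.63 after POL5551. It was above background on 1 sham array and on all 3 POL5551 arrays, and the nearest arrays of the groups were far apart. The difference was 5.16 (SE 0.442, adjusted p = 0.00189) and 5.52 in the authors' table (adjusted p = 0.00376). These differences are partly against background signal, and with the dim shams set to the lowest signal well above background on their arrays, their floor, the difference was 4.17. As measured it was 6.33 within slide 1 and 4.70 within slide 2. Cd53 was called in each of the 12 fits that left out 1 array and under all 5 other scalings that were tried.

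The Cd53 value rests on 1 tested probe, and its sequence is shown for that reason. The 60 bases cover 1095 bases of the genome, chr3:106565046-106566140 of mm9, so the probe crosses at least 1 intron. It is printed as the array design gives it, in lower case throughout.
Cd53 probe: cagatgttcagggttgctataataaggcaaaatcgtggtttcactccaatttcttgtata

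Ncf4, which encodes the p40 subunit of the phagocyte NADPH oxidase (probe at chr15:78092903-78092962), had -2.47, -1.60 and -1.39 in the shams and 1.11, 0.65 and 0.51 after POL5551. All 6 arrays were above background and the groups were well separated. It rose by 2.58 (SE 0.374, adjusted p = 0.0165), and by 2.82 in the authors' table (adjusted p = 0.0421). Hvcn1, the voltage-gated proton channel that compensates charge during the oxidase reaction (chr5:122692220-122692279), was not above background in any sham. Its measured levels were -6.03, -6.75 and -7.03 in the shams and -2.06, -1.41 and -2.85 after POL5551. That is at least 5.35-fold higher (adjusted p = 0.0294, and 0.0418 in the authors' table). Bounds of this kind set the bright group's mean against, on each dim array, the higher of the lowest signal well above background and the probe's own signal. Without sham 1 Hvcn1 had an adjusted p of 0.0797.

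Borcs5, a subunit of the complex that carries lysosomes to the cell edge (chr6:134660740-134660799), was not above background in any sham. It had -5.79, -6.67 and -6.19 in the shams and -1.67, -2.53 and -2.02 after POL5551. It was at least 5.49-fold higher (adjusted p = 0.00343, and 0.00529 in the authors' table) and was called in all 12 fits that left out 1 array. Stap2, a signalling adaptor that binds tyrosine kinases and STAT factors (chr17:56136508-56136567), was at least 2.41-fold higher (adjusted p = 0.0221, and 0.0156 in the authors' table). Its adjusted p was 0.0575 with the slide as a block.

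Ddx11, a DNA helicase of sister chromatid cohesion (chr17:66500580-66500639), was at least 2.42-fold higher, with measured levels of -5.70 ± 0.22 in sham and -3.25 ± 0.25 after POL5551 (SD, n = 3; limma adjusted p = 0.00973, and 0.0223 in the authors' table). It was called in all 12 fits that left out 1 array. Tnfsf9, the ligand of the costimulatory receptor 4-1BB (chr17:57247062-57247121), had -4.87, -4.49 and -4.38 after POL5551 and was not above background in any sham, too close to the floor for a bound on its fold (adjusted p = 0.0371, and 0.0101 in the authors' table).

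Slc6a8, the creatine transporter (chrX:70925849-70925908), was above background on all 6 arrays and rose by 1.37 (SE 0.300, adjusted p = 0.0465, and 0.0476 in the authors' table). Its other probe was above background on 1 sham array and all 3 POL5551 arrays. Rflnb, an actin regulator also known as Fam101b (chr11:75835250-75835309), was above background on 1 sham array and rose by 2.18, or 1.96 with dim arrays set to their floor (adjusted p = 0.0429, and 0.0418 in the authors' table). The calls of Tnfsf9, Slc6a8 and Rflnb were lost without sham 1 (adjusted p = 0.0594, 0.0765 and 0.104) and with the slide as a block (0.0799, 0.101 and 0.0869). Of the other genes higher in both, 5 have no plain symbol. Tcf7l1, a repressor of WNT targets, was above background on only 2 POL5551 arrays. Its call was lost without sham 1 (adjusted p = 0.077).

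**Figure D3:**
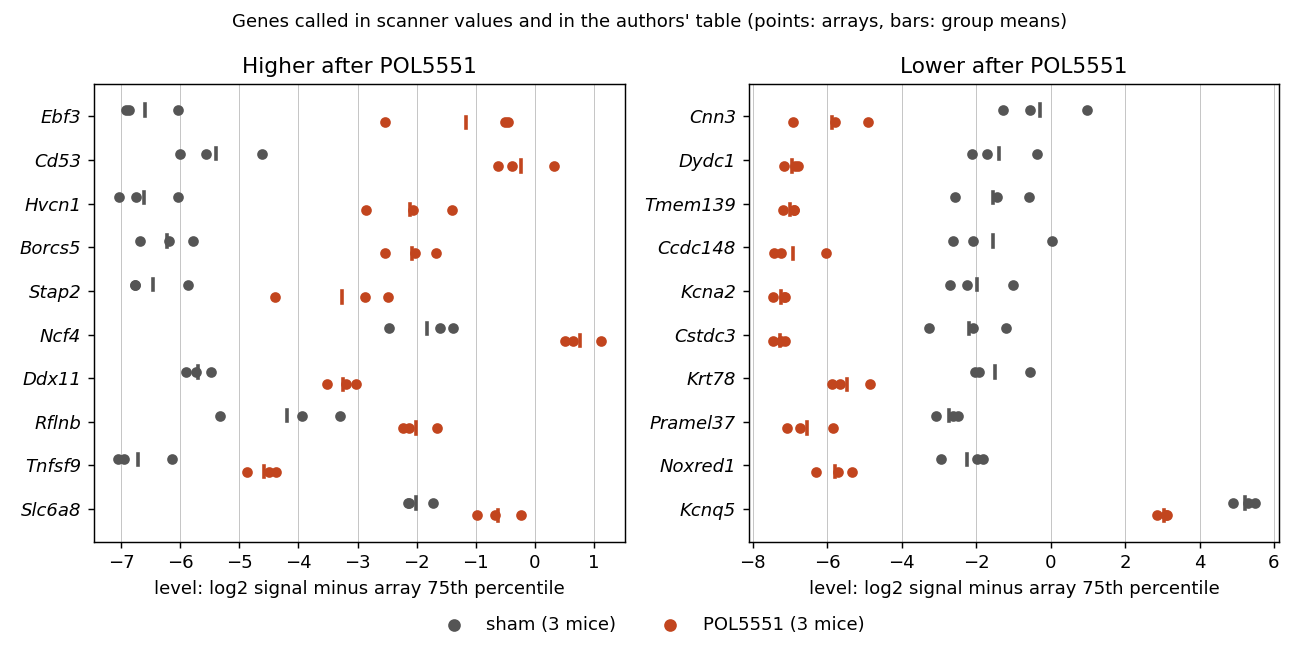
Levels on each array (points; horizontal axis, log2 signal relative to the 75th percentile) and group means (bars) of the 10 genes higher (left) and 10 lower (right) that were called in both sets of values, sham in grey and POL5551 in red. The groups do not overlap for any of the 20 genes, and most of the lower genes sit near the bottom of the scale after POL5551.

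Of the 10 genes with a plain symbol that were lower in both sets of values, 9 were above background on all 3 shams and on no POL5551 array. Dydc1, known from sperm (chr14:41905295-41905354), had -0.37, -1.70 and -2.12 in the shams and -7.16, -6.87 and -6.78 after POL5551, at least 12.0-fold lower (adjusted p = 0.00197, and 0.0155 in the authors' table). Tmem139, a membrane protein gene (chr6:42214487-42214546), had -2.56, -0.59 and -1.45 in the shams and -7.18, -6.90 and -6.90 after POL5551, at least 10.9-fold lower (adjusted p = 0.00238). The potassium channel gene Kcna2 (chr3:106909700-106909759) was at least 7.92-fold lower (adjusted p = 0.00682).

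Krt78, a keratin of stratified epithelium (chr15:101776599-101776658), was at least 11.1-fold lower (adjusted p = 0.00682). The same held for Ccdc148, a coiled-coil gene, at 10.7-fold (adjusted p = 0.00973), for Noxred1, a predicted oxidoreductase, at 6.65-fold (adjusted p = 0.00713), for Pramel37 at 4.76-fold (adjusted p = 0.00713) and for Cstdc3, a cystatin relative, at 6.90-fold (adjusted p = 0.0232). Pramel37 and Cstdc3 belong to families of similar genes, to which a probe can bind in common. Cstdc3 lost its call without sham 1 (adjusted p = 0.0796) and with the slide as a block (0.0558).

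The probes of 2 of the lower genes did not move alike. The Cnn3 probe on chromosome 3 at 121127170 to 121127229 gave at least 25.8-fold lower signal (adjusted p = 0.00815), while a second probe of this calponin gene differed by -1.46. Kcnq5, a potassium channel gene, had 4.89 to 5.50 in the shams and 2.85 to 3.14 after POL5551 on the named probe at chr1:21567995-21568054, a difference of -2.20 (SE 0.389, adjusted p = 0.0279). Its other probe above background on all 12 arrays differed by 0.41, and the call was lost without sham 1 (adjusted p = 0.0814).

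Over the 746 called genes, 5 were called under all 5 other scalings (the median, quantile normalization, the percentile over bright probes, normexp with quantile normalization, and the authors' values) and in all 12 fits that left out 1 array. They are Cd53, which was higher, and 4 transcripts that were lower and that have no plain symbol. These 4 were chosen after their values were seen. The transcript 2210407C18Rik (chr11:58421762-58421821) was above background on all 6 arrays, with -1.01, -0.97 and -0.53 in the shams and -4.47, -4.11 and -3.75 after POL5551. It fell by 3.28 (SE 0.339, adjusted p = 0.00293), and by 2.87 in the authors' table. CK380237 (chr8:18917745-18917804) fell by 2.55 (adjusted p = 0.011), and LOC102641211 (chr5:109287122-109287181) fell by 3.31 (adjusted p = 0.00973). Gm33981 was at least 19.8-fold lower (adjusted p = 0.00189).

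Larger differences that were called in the scanner values alone follow. Rbp4, the plasma retinol carrier, had -5.87, -6.42 and -6.60 in the shams and -1.86, -3.27 and -2.79 after POL5551 and was at least 3.70-fold higher (adjusted p = 0.0229, but 0.0518 in the authors' table and 0.0594 without sham 1). Anxa2, which encodes a membrane-binding annexin that niche cells use to hold stem cells, had -4.80, -1.86 and -2.44 in the shams and 0.25, 0.58 and -0.25 after POL5551. It rose by 3.23 (SE 0.633, adjusted p = 0.0379, and 0.0797 in the authors' table), or 2.93 with the dim sham set to its floor. A second probe was above background on no sham and on all 3 POL5551 arrays. Sham 1 was the lowest array for Anxa2, and without it the difference was 2.34 (adjusted p = 0.0493).

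Inhbe, an activin subunit made in liver, had -0.37, -0.16 and -3.37 in the shams and -7.43, -7.10 and -4.81 after POL5551. It was at least 12.4-fold lower (adjusted p = 0.0304, but 0.0761 in the authors' table and 0.112 without sham 1). Ces3b, a liver carboxylesterase, was at least 7.72-fold lower (adjusted p = 0.0247, and 0.0802 there and 0.0520 with the slide as a block), and Fndc7 at least 6.48-fold (adjusted p = 0.0299, and 0.0900 there and 0.0973 without sham 1). Zar1l, an oocyte gene, was at least 6.80-fold lower (adjusted p = 0.0477, 0.160 without sham 1 and 0.0563 with the slide as a block), and was not compared in the authors' table. Afm, the plasma protein afamin, fell by 4.57 (SE 0.996, adjusted p = 0.0464, and 0.148 without sham 1), with levels of -7.34, -6.05 and -2.56 after POL5551. It was above background on 1 POL5551 array, and with dim arrays set to their floor it fell by 3.43.

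Of the CXCR4 pathway, 0 of 29 genes were called by limma, with 7 higher and 0 lower at an unadjusted p under 0.05. The median difference was 0.75, beside -0.52 over all genes and 0.03 over genes with a plain symbol, and 26 of the 29 were above 0. Without sham 1 the median was 0.44, and with the off-tissue covariate -0.27. Cxcr4 itself had 1.36, 3.79 and 3.47 in the shams and 3.62, 3.56 and 3.69 after POL5551 (difference 0.75, SE 0.541, adjusted p = 0.298). Only sham 1 was low, and without it the difference was -0.01. Grk2, the kinase that desensitizes the receptor, was also lowest on sham 1. It had -0.54, 2.76 and 3.0 in the shams and 3.92, 3.49 and 3.72 after POL5551 (adjusted p = 0.106). Without sham 1 the Grk2 difference was 0.83 (adjusted p = 0.208). The second CXCL12 receptor gene, Ackr3, was above background on 1 array of each group.

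Cxcl12 was measured well above background in these sorted cells. It had -0.48, -0.75 and -1.54 in the shams and 3.03, 1.45 and 3.16 after POL5551, with no overlap. The difference was 3.47 (SE 0.942) and did not pass the adjusted test (p = 0.0643, and 0.108 in the authors' table). On the G-CSF arrays Cxcl12 had -1.48, -1.38 and 2.34 after 2 days and 2.94, 1.03 and 2.62 after 5 days. CXCL12 is a product of marrow stroma, and the whole list of stromal markers is given next.

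Of 24 tested markers of CXCL12-abundant reticular and stromal cells, 4 were called higher and 0 lower. The shares were 0.175% and 2.07% of all genes, and 0.269% and 1.12% of genes with a plain symbol. The list, like the others, was chosen with earlier results of these data known. Its counts and median therefore describe these arrays and give no independent support. The median difference of the markers was 1.73, and 19 of the 24 were above 0. It was 1.94 in the authors' table, 1.92 without sham 1 and 1.88 with the off-tissue covariate. At an unadjusted p under 0.05, 14 were higher and 1 was lower in the limma test. Ebf3, a transcription factor of reticular cells (chr7:144385490-144385549), was not above background in any sham, with -6.03, -6.86 and -6.91, and had -0.51, -2.53 and -0.46 after POL5551. It was at least 10.3-fold higher and called in both sets of values (adjusted p = 0.0197, and 0.0223 in the authors' table, but 0.0592 without sham 1). A second probe was above background on no sham and on 2 POL5551 arrays.

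Hp, the haemoglobin-binding protein haptoglobin, had -1.09, -1.24 and -1.20 in the shams and 3.32, 1.30 and 3.03 after POL5551. It rose by 3.73 (SE 0.856, adjusted p = 0.0494, and 0.0911 in the authors' table). Pdgfrb, the platelet-derived growth factor receptor of perivascular cells, had -6.01, -3.58 and -2.46 in the shams and -0.16, -0.48 and -0.54 after POL5551, and rose by 3.62, or 2.92 with the dim sham set to its floor (SE 0.687, adjusted p = 0.0336, but 0.0713 in the authors' table). Gdpd2, a phosphodiesterase gene of osteoblasts and reticular cells, had -3.51, -4.57 and -4.49 in the shams and 1.64, -1.09 and 1.79 after POL5551 and rose by 4.97 (SE 1.08, adjusted p = 0.0459, but 0.0797 in the authors' table), while its other probe, above background on all 12 arrays, differed by -1.38. Without sham 1 the adjusted p was 0.143 for Hp and 0.123 for Gdpd2, and with the slide as a block it was 0.0861 and 0.0855.

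Some other defining markers were not called but had levels far from background. Adipoq, which marks the adipogenic reticular cells of marrow, had -0.27, -1.44 and -2.04 in the shams and 3.12, 1.32 and 2.92 after POL5551 (adjusted p = 0.0525). Lepr, the leptin receptor that marks the same cells, had -1.20, -0.17 and -2.27 in the shams and 2.52, -0.24 and 2.27 after POL5551, so that mouse 2 fell among the shams. Igfbp5, Sparc and Col1a2 were likewise lowest in mouse 2 of the POL5551 group. Lepr and these 3 genes were added after their values were seen, and all had higher means after POL5551. Pdgfra, Cspg4 and Lpl were among the 5 markers below 0. With no overlap between groups, 12 of the 24 markers were higher and 2 lower, beside 10.5% and 25.9% of all genes. The summed signal of the list, each gene relative to the array's 75th percentile, ran from 15.9 to 26.3 in the shams and from 40.49 to 109.14 after POL5551. Between 18 and 20 of the 24 markers were above background on a sham array and between 22 and 24 on a POL5551 array. Il7, the other marker of the list, did not pass the filter, and none of the 24 was at background on all 6 arrays. The part of stromal cells among the sorted cells was not tested, and in bulk samples more cells of a type and more RNA per cell cannot be told apart.

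**Figure D4:**
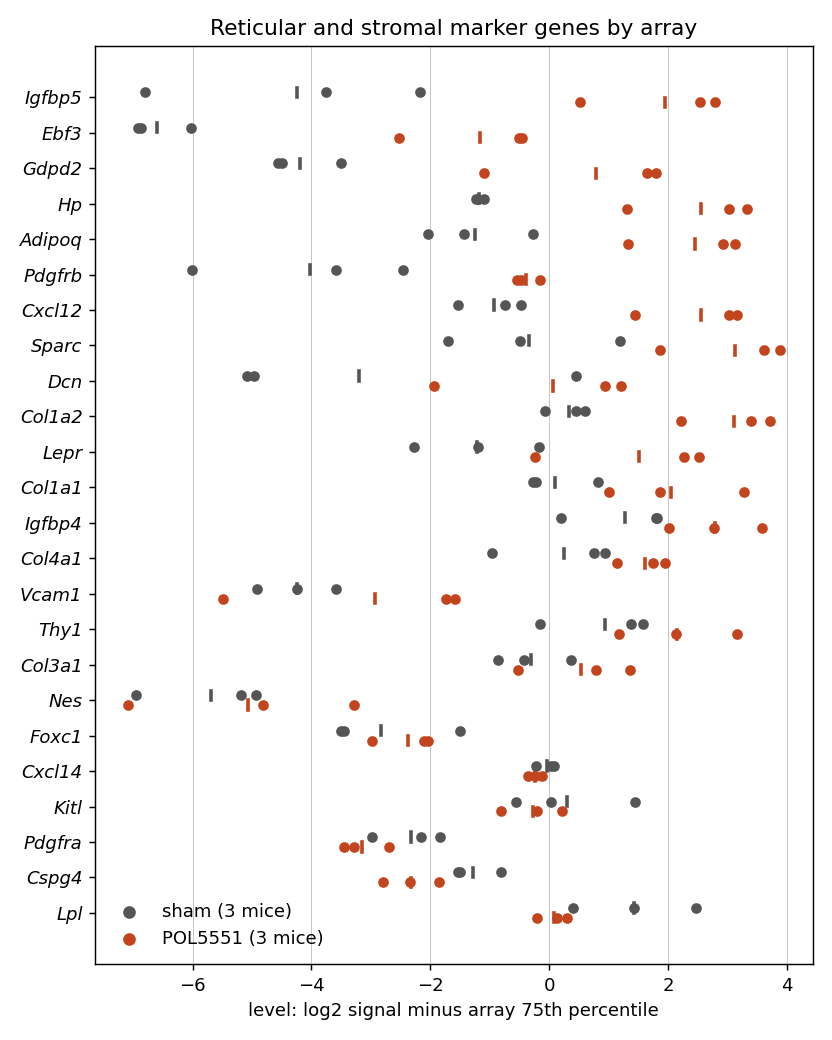
Levels of the 24 tested reticular and stromal marker genes on each array (points; horizontal axis, log2 signal relative to the 75th percentile) with group means (bars), ordered by difference, sham in grey and POL5551 in red. The upper genes, from Igfbp5 to Col1a2, have higher means after POL5551, while Pdgfra, Cspg4 and Lpl at the bottom have lower ones.

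Markers of other marrow cells had medians closer to 0. Osteoblast markers had a median of -0.19, endothelial markers -0.11 and adipocyte markers -0.29, with 0 called by limma in each. Without sham 1 these medians were 0.17, -0.18 and 0.23, so that the first and the last changed sign. At an unadjusted p under 0.05 there was 1 higher and 1 lower osteoblast marker, and there were 2 and 3 endothelial and 2 and 2 adipocyte markers. Both higher adipocyte markers stand in another list too, Adipoq in the stromal and Fabp4 in the endothelial one. Ibsp, the bone sialoprotein of osteoblasts, had -1.09, -4.02 and -3.78 in the shams and 0.49, -1.88 and 0.71 after POL5551 (adjusted p = 0.108). Spp1, which encodes osteopontin, had -3.08, -3.36 and -4.58 in the shams and -0.15, -2.12 and -0.93 after POL5551 (adjusted p = 0.147). As for the stromal genes, mouse 2 of the POL5551 group was the lowest of its group for both. Fabp4, a fatty acid carrier of capillary endothelium, had -3.16, -2.04 and -2.04 in the shams and -0.51, -1.08 and -0.31 after POL5551 (adjusted p = 0.0583). Cldn5, the tight junction claudin of endothelium, had 0.18, -1.07 and -0.05 in the shams and -1.85, -2.42 and -1.44 after POL5551 (adjusted p = 0.0634). The endothelial markers thus differed in sign among themselves.

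Among adhesion and retention genes 0 of 30 were called by limma, with 9 higher and 1 lower at an unadjusted p under 0.05. The median was 0.84, and 0.28 without sham 1 and -0.30 with the off-tissue covariate. The alpha chain of VLA-4, Itga4, had -1.09, 0.38 and -0.36 in the shams and 0.76, 1.37 and 0.56 after POL5551 (adjusted p = 0.0838). Itgb2, the beta chain of the leukocyte integrins, had 1.18, 1.60 and 2.03 in the shams and 3.55, 2.54 and 3.10 after POL5551 (adjusted p = 0.0593). Neither gene overlapped between groups, but both had the smallest p among the higher genes of the list, which favours this. Of the 30 genes 9 were higher and 2 lower with no overlap, beside 10.5% and 25.9% of all genes. The values of Itgb1, Cd44 and Selplg, which encode the VLA-4 beta chain, the hyaluronan receptor and the selectin ligand, gave adjusted p-values of 0.166, 0.0965 and 0.131, with sham 1 the lowest array for each.

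Of 18 other egress and chemokine receptors 1 was called lower and 0 higher, with 3 higher and 4 lower at an unadjusted p under 0.05 by limma. The median was -0.22, or -0.11 without sham 1 and 0.35 in the authors' table. Cx3cr1, the fractalkine receptor of monocytes (chr9:119957811-119957870), had -1.14, -2.28 and -3.47 in the shams and -7.23, -6.93 and -4.82 after POL5551. It was at least 6.22-fold lower (adjusted p = 0.0267, but 0.0557 in the authors' table and 0.0860 without sham 1). S1pr1, the sphingosine phosphate receptor that draws cells into the blood, had -1.16, -1.38 and -0.67 in the shams and 0.40, 0.41 and 0.12 after POL5551 (adjusted p = 0.0907). Those groups did not overlap. Of the 18 genes of the list 2 were higher and 4 lower with no overlap, beside 10.5% and 25.9% of all genes.

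Of 26 STAT targets and feedback genes 2 were called higher, Hp and Socs3, and 24 were above 0 with a median of 0.65. Hp is also among the stromal calls. At an unadjusted p under 0.05, 7 of the 26 were higher and 2 lower by limma. Without sham 1 the median was 0.30 with 20 above 0, and with the off-tissue covariate it was -0.10. Socs3, the inhibitor of cytokine receptors that act through STAT3, had -1.0, 0.23 and 0.07 in the shams and 1.53, 2.06 and 1.22 after POL5551. It rose by 1.84 (SE 0.387, adjusted p = 0.0429), but the adjusted p was 0.0900 in the authors' table and 0.105 without sham 1. The RefSeq promoter of Socs3 is shown since this gene is a known STAT target. It lies at chr11:117969317-117969616 of GRCm38.p6 on the minus strand. Capitals mark the STAT motif TTCNNNGAA, which reads the same on both strands and starts 154 bases before the start site.
Socs3 promoter: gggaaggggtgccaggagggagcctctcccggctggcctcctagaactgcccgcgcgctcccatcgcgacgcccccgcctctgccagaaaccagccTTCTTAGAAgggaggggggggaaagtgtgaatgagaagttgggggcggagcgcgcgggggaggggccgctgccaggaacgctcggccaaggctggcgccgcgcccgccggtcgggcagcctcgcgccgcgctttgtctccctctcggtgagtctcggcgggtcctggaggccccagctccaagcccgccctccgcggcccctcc

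The motif was in 9.2% of the promoters of 17790 tested genes, in 2 of 35 promoters of called higher genes (5.71%, Socs3 and Mgst1) and in 14 of 142 promoters of called lower genes (9.86%). The match describes letters in a window of 300 bases and says nothing of binding.

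Gadd45g, a growth arrest gene induced by stress (chr13:51943733-51943792), had -0.93, -1.21 and -1.17 in the shams and 0.45, 0.47 and 0.35 after POL5551. It rose by 1.53 (SE 0.301, adjusted p = 0.038, but 0.053 in the authors' table, 0.0715 without sham 1 and 0.062 with the slide as a block). Gtse1, a mitotic gene that restrains p53 (chr15:85706887-85706946), was not above background in any sham and was at least 2.76-fold higher (adjusted p = 0.0465, but 0.0722 in the authors' table, 0.111 without sham 1 and 0.0544 with the slide as a block). Of the 22 genes of p53 and GADD45 stress these 2 were called, and Gtse1 is also in the G2/M list. The list's median was 0.38, or 0.37 without sham 1, 0.82 in the authors' table and 0.07 with the off-tissue covariate. At an unadjusted p under 0.05, 7 were higher and 1 was lower by limma.

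The cell cycle lists held many genes above 0 and few calls. Of 35 S phase genes 0 were called by limma, with 16 higher and 2 lower at an unadjusted p under 0.05 and a median of 0.89, or 0.57 without sham 1. Of 35 G2/M genes 1 was called, 15 were higher and 1 was lower at the unadjusted level, and the median was 0.75, or 0.66 without sham 1. With the off-tissue covariate the medians were 0.05 for S phase and 0.25 for G2/M genes. Clspn, the claspin of the replication checkpoint, had -3.69, -2.06 and -1.61 in the shams and 0.26, -0.56 and -0.30 after POL5551 (adjusted p = 0.0522). Rrm1, a ribonucleotide reductase subunit, had -1.16, -0.49 and -0.43 in the shams and 0.34, 0.72 and 0.35 after POL5551 (adjusted p = 0.0607). Prim2, a primase subunit, had 0.17, -0.55 and -1.18 in the shams and -2.45, -1.51 and -1.75 after POL5551 (adjusted p = 0.0678). Tk1, thymidine kinase, had 2.62, 1.85 and 1.77 in the shams and 1.16, 1.08 and 1.0 after POL5551 (adjusted p = 0.0996). The differences of Prim2 and Tk1 changed sign when all probes of the gene were averaged. Mki67, the proliferation marker, had 0.70, 0.23 and 0.54 in the shams and 1.23, 2.27 and 0.75 after POL5551 (adjusted p = 0.131). None of these 5 genes overlapped between groups. All but Mki67 were taken for the smallest p in their direction, which favours such genes. With no overlap, 16 of the 35 S phase genes were higher and 2 lower. For the 35 G2/M genes, which include Mki67, 11 were higher and 1 lower. The shares over all genes were 10.5% and 25.9%.

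Stem cell identity and quiescence genes gave no call. Of 36 HSC identity genes 2 were higher and 1 lower at an unadjusted p under 0.05 by limma, with a median of 0.39 that was 0.00 without sham 1. Of 29 quiescence genes 3 were higher and 1 lower, with a median of 0.39 and 0.31 without sham 1. With the off-tissue covariate the medians were -0.34 for HSC identity and -0.12 for quiescence genes. Mecom, a transcription factor of stem cell maintenance, had 1.86, 0.44 and 0.44 in the shams and -0.69, -0.44 and -0.16 after POL5551 (adjusted p = 0.0899). Gfi1, a repressor that restrains stem cell cycling, had -1.87, 0.01 and -0.95 in the shams and 0.28, 0.55 and 0.89 after POL5551 (adjusted p = 0.0785). Cd27, a receptor of early progenitors, gave an adjusted p of 0.105.

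**Figure D5:**
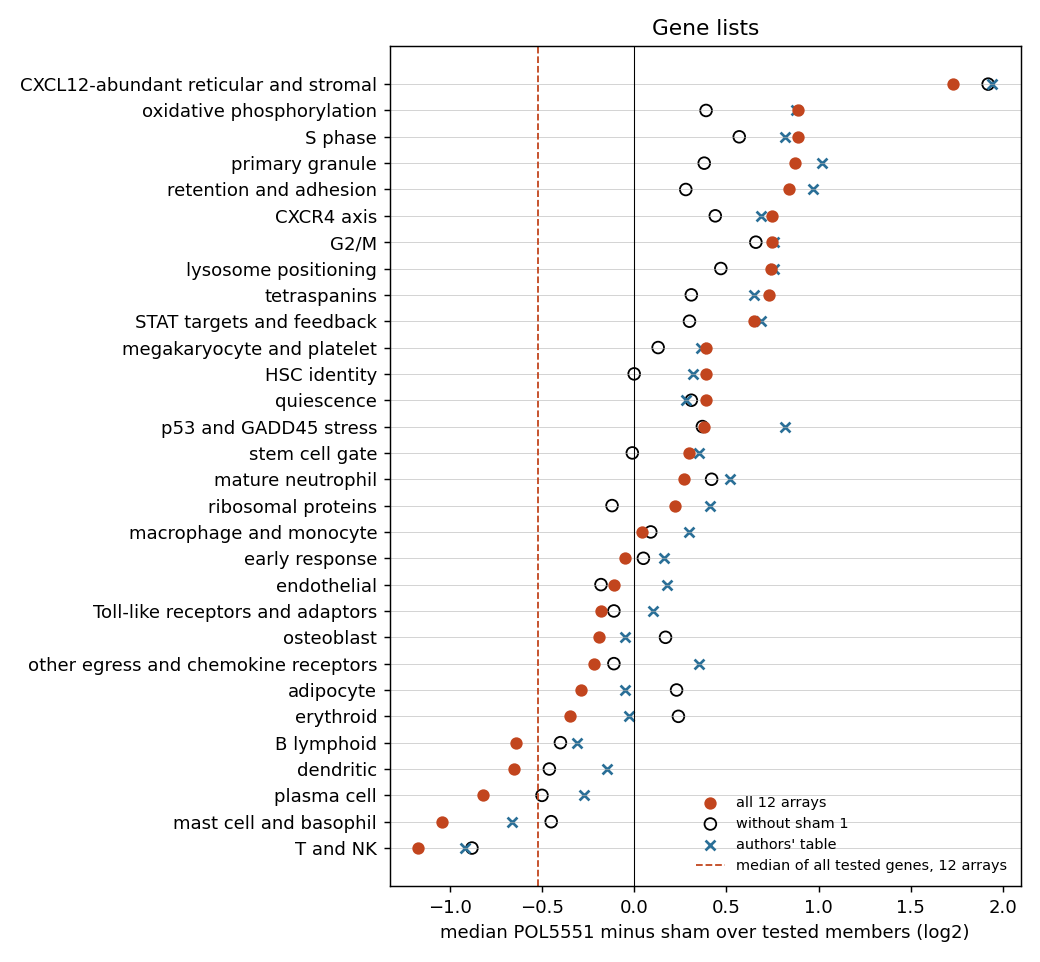
Median difference of POL5551 minus sham over the tested members of each of the 30 gene lists (horizontal axis, log2), from all 12 arrays (red), without sham 1 (open circles) and from the authors' table (crosses), with the median of all tested genes, -0.52, dashed. Genes with a plain symbol alone had a median of 0.03, which is not drawn. The stromal list lies farthest to the right in all 3 sets of values, and most other lists above 0 move towards 0 without sham 1.

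All 39 tested oxidative phosphorylation genes were above 0, with a median of 0.89, and 0 were called by limma, with 14 higher and 0 lower at an unadjusted p under 0.05. Of the 17476 genes with a plain symbol, 8864 were above 0. The list's median was 0.39 without sham 1, and all 39 were still above 0. With the off-tissue covariate the list's median was -0.26. Ndufb10, a subunit of complex I, had 1.35, 2.38 and 2.47 in the shams and 3.18, 3.51 and 2.82 after POL5551 (adjusted p = 0.0902). The 45 ribosomal protein genes had a median of 0.22, which was -0.12 without sham 1, with 0 called and 1 higher and 2 lower at the unadjusted level by limma. Lysosome positioning genes, which include Borcs5, had 1 of 20 called. Their median was 0.74, or 0.47 without sham 1 and -0.08 with the off-tissue covariate. Tetraspanins, which include Cd53, had 1 of 16 called and a median of 0.73, or 0.31 without sham 1 and -0.36 with the off-tissue covariate. At the unadjusted level by limma, 7 lysosome positioning genes were higher and 0 lower, and 5 tetraspanins were higher and 2 lower.

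The Toll-like receptor list held calls in both directions, 1 of 24 each, with a median of -0.18, or -0.11 without sham 1. Tlr12, a receptor for a profilin of protozoa (chr4:128292690-128292749), had -6.21, -3.04 and -1.72 in the shams and 0.74, 1.52 and 0.02 after POL5551 and rose by 4.41, or 3.65 with the dim sham set to its floor (SE 0.884, adjusted p = 0.0395, but 0.0809 in the authors' table). Sham 1 was the lowest, and without it the difference was 3.14 (adjusted p = 0.0493). Tlr11, a receptor for the same kind of ligand (chr14:50983110-50983169), was not above background after POL5551 and was at least 3.17-fold lower (adjusted p = 0.0229, but 0.0591 in the authors' table and 0.0623 without sham 1). The 26 early response genes had a median of -0.05, or 0.05 without sham 1, with 0 called and 0 higher and 3 lower at the unadjusted level by limma. Atf3 among them had -0.19, -2.08 and -1.98 in the shams and -3.52, -2.91 and -3.0 after POL5551 (adjusted p = 0.0775).

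Single genes of differentiated blood lineages were called. Gata1, the transcription factor of erythroid and megakaryocytic cells (chrX:7536392-7536451), had 0.11, 0.67 and 0.41 in the shams and 1.85, 2.79 and 1.63 after POL5551. It rose by 1.69 (SE 0.361, adjusted p = 0.0436, but 0.0846 in the authors' table and 0.128 without sham 1). Of the 16 erythroid markers it was the 1 called, and the list's median was -0.35, but 0.24 without sham 1 and -0.03 in the authors' table. Gp1ba, a platelet adhesion receptor subunit (chr11:70455461-70455520), was not above background in any sham and was at least 2.52-fold higher (adjusted p = 0.0418, but 0.0586 in the authors' table, 0.131 without sham 1 and 0.0591 with the slide as a block). It was the 1 called of 19 megakaryocyte markers, with a median of 0.39, or 0.13 without sham 1 and -0.12 with the off-tissue covariate. Mcpt1, a protease of mucosal mast cells (chr14:56638928-56638987), had -0.10, -1.04 and -1.42 in the shams and -7.31, -6.95 and -3.13 after POL5551 and was above background on 1 of the latter. It fell by 4.95, or by 3.52 with dim arrays set to their floor (SE 0.975, adjusted p = 0.038, but 0.0722 in the authors' table and 0.130 without sham 1). It was the 1 called of 13 mast cell markers, with a median of -1.04, but -0.45 without sham 1 and 0.14 with the off-tissue covariate.

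The remaining lineage lists had no call by limma, and their unadjusted counts are to be read against 8.33% higher and 26.7% lower over all genes. Their medians stand beside -0.52 for all genes and 0.03 for genes with a plain symbol. T and NK markers had a median of -1.17, with 1 higher and 4 lower of 13 at an unadjusted p under 0.05. Dendritic markers had a median of -0.65, with 0 higher and 4 lower of 11, and B lymphoid markers -0.64, with 1 higher and 2 lower of 13. Plasma cell markers had -0.82, with 0 higher and 1 lower of 8. Primary granule markers had a median of 0.87, with 3 higher and 0 lower of 10, mature neutrophil markers 0.27, with 2 higher and 1 lower of 15, and macrophage markers 0.04, with 2 higher and 0 lower of 16. The stem cell gate list had 0.30, with 1 higher and 1 lower of 10. Without sham 1 the medians were -0.88 for T and NK, -0.46 for dendritic, -0.40 for B lymphoid, -0.50 for plasma cell, 0.38 for primary granule, 0.42 for mature neutrophil, 0.09 for macrophage and -0.01 for stem cell gate markers. With the off-tissue covariate they were -0.15 for T and NK, -0.23 for dendritic, 0.04 for B lymphoid and 0.24 for plasma cell markers. For primary granule, mature neutrophil, macrophage and stem cell gate markers they were 0.13, 0.80, 0.54 and -0.30 with the covariate. Nkg7, a granule membrane protein gene in both the primary granule and the T and NK lists, had -1.25, 1.67 and 0.98 in the shams and 2.99, 3.18 and 2.51 after POL5551 (adjusted p = 0.0568).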

How the data were processed

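Sorted marrow stem cells of 12 mice were measured on single-colour Cy5 Agilent arrays. Per the file headers, the deposited scanner files hold fluorescence intensity on a linear scale from Agilent Feature Extraction 11.5.1.1, background-subtracted, with no normalization between arrays. The table deposited by the authors holds intensity with the same median, 1080, in each column, as after quantile normalization, and its fit and that of quantile-normalized scanner values both gave 8817 genes at an unadjusted p under 0.05. Within the POL5551 group its columns match scanner files of other mouse numbers, and mice are numbered here as in the scanner files.

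Control and outlier spots were left out, spots of a probe were averaged, and the log2 of the deposited intensity minus the array's 75th percentile was taken. Probes well above background on at least 3 of 12 arrays were tested, each gene by its brightest probe. Probes were named through RefSeq accessions, then symbols and synonyms, and 12768 of 56605 stayed unmatched. Coordinates are those of the array design (mm9). Group means over 12 arrays were fitted with limma 3.58.1 in R 4.3.3, with 8 residual degrees of freedom and two-sided tests. For 1 gene, 3 mice a group would allow an exact p of 0.1 at best. Slide 1 held sham 1 and POL5551 mouse 1, slide 2 shams 2 and 3 and POL5551 mouse 2, and slide 5 POL5551 mouse 3. The procedure was tested on simulated data.

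Genes named are those called in both tables (up to 12 a direction by size, groups not overlapping, above background on all 3 arrays of a group), called in the scanner values alone (up to 6), called members of 15 pathway and 15 marker lists or, where a list has none, up to 2 a direction, and 18 fixed genes. Some that add nothing were left out. Lepr, Igfbp5, Sparc and Col1a2 lie outside this rule and were added after their values were seen. Members and lists were chosen with earlier results of these data known. The number of arrays limits the precision.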

Additional observations from a re-analysis of the deposited data

How the results depend on the processing

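Of the 746 calls 332 were above background on all 6 arrays; values near background limit the rest, and most calls lie just under the threshold. For genes higher after POL5551 and genes lower after POL5551, 58 and 688, the counts that moved by over 1.5 times were 164 lower with median scaling, 18 and 72 with quantile normalization, 1069 lower with the percentile over bright probes, 6 and 22 with normexp, 16 and 46 with the authors' values, 212 and 1815 for probes bright on all 12 arrays, 220 and 1973 for probes bright on all 3 arrays of a group, 4 and 59 with the 6 arrays alone, 17 and 128 with array weights, and 1042 lower with the slide as a fixed block. With the off-tissue covariate limma gave 0 and 0, with 1805 genes at an unadjusted p under 0.05. Added after seeing the data, leaving out both sham 1 and POL5551 mouse 1 gave 6 and 29, and centring on the median of the tested genes gave 157 lower. Leaving out 1 array gave 6 to 806 higher and 54 to 3862 lower, the highest counts without sham 3 and the lowest without POL5551 mouse 1. For the genes called in both value tables, 62, the counts were 17 with normexp, 14 with probes bright on all 12 arrays, 26 with the 6 arrays alone, 0 with the covariate, 12 without both arrays, and 29 to 62 when 1 array was left out. The other settings left these counts within 1.5 times. The causes were not tested.

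The replicate block gave 16 higher and 165 lower. Deviations of same-numbered sham and POL5551 arrays correlated at -0.304, 0.025 and -0.166, so the numbers were not taken to pair the mice, although the mice numbered 1 shared slide 1 and those numbered 2 shared slide 2.

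Setting dim arrays to their floor was also added after seeing the data.

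Some values reversed. Cxcr4 was -0.01 to 1.21 when 1 array was left out, with the lowest value without sham 1, -0.01 without both arrays and -0.86 with the covariate. With the covariate Cd27 was -0.40, Cd44 -0.15, Grk2 -0.69, Itgb1 -0.97, Selplg -0.32 and Mecom 0.16, and as means of their probes Mecom was 0.05, Prim2 0.43 and Tk1 0.71. Gdpd2 was -1.38 with probes bright on all 12 arrays, where its other probe stood for it.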
